A study of Homo sapiens with 6 samples.

Results

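The G2/M and mitosis genes are 56 genes of the late cell cycle, taken by symbol from a fixed list: the regulator FOXM1 and the proliferation markers MKI67 and TOP2A, cyclins with CDK1 and CDC25 phosphatases, mitotic kinases, checkpoint and anaphase genes, kinesins, kinetochore genes, chromosomal passenger genes, spindle and cytokinesis genes, and condensins. All 56 symbols had a row among the 26364 genes of the table, and all 56 passed the filter of a mean normalised read count of at least 10 that left 16032 genes to test. The lowest siNC mean among them was 1563, for CDCA3, so no member was near that filter. The choice of the 56 used no measured value, but it was made with earlier results of these data known.

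RNA-seq had been done on T47D cells, which are an established line from a human luminal A breast cancer, 48 h after transfection. One group received siNC, a control siRNA sold under its own catalogue number, and the other received siELF5, an siRNA against ELF5, a transcription factor with an ETS domain that works in luminal mammary cells. Each group held 3 libraries and 1 siRNA product, so product and target cannot be told apart, and nothing in the labels says that the replicates were separate cultures. The question named in the series title is the part that ELF5 plays in epithelial integrity apart from EHF, and for these genes the comparison asks whether the mitotic programme differed after ELF5 knockdown.

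As background, the genes of mitosis are transcribed in a wave in G2 phase. Their promoters are held silent earlier in the cycle by the DREAM complex and are activated later by B-MYB with the MuvB core and by FOXM1, through a promoter element called the cell cycle genes homology region (CHR), often with CCAAT boxes bound by NF-Y close by. Cyclin B with CDK1 starts mitosis once CDC25 phosphatases remove the inhibitory phosphates set by WEE1 and PKMYT1. Kinetochores then attach chromosomes to the spindle under the watch of the checkpoint, and the anaphase-promoting complex (APC/C) ends mitosis by marking securin and cyclin B for destruction. In breast cancer this group of genes is read as a measure of proliferation, with MKI67 the gene behind the Ki-67 stain.

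The siRNA had acted on its target in every siELF5 library, where ELF5 stood at 27.8% to 28.4% of the siNC mean. Depth was 66.8 M to 83.7 M assigned reads per library. The luminal markers EPCAM, KRT8, KRT18, KRT19, GATA3, ESR1, PGR and XBP1 were abundant in all 6 libraries. PTPRC, CD3E, PECAM1, CDH5, PDGFRB and COL1A2 lay between 0 and 13.7 normalised reads, CD68 between 125 and 178, and COL1A1, a collagen gene listed as a fibroblast marker, between 3220 and 5184. The libraries also differed in how strongly GC-rich transcripts were represented. A library GC score, the level of the most GC-rich genes relative to genes of middle GC content, was -0.396, -0.219 and -0.0728 in siNC 1, 2 and 3 and 0.223, 0.278 and 0.222 in siELF5 1, 2 and 3, so it did not overlap between the groups. The part of this score in the results was not tested. Values after a GC correction of each library are given for the called members, and values with the score as a covariate where they differ by much.

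The promoters of 4 called genes are shown because CHR and CCAAT, 2 of 3 motifs searched, were common among the members, a feature that played no part in choosing them. They belong to the called kinase, cyclin or CDC25, kinesin and kinetochore genes with the smallest adjusted p that had an entry. Each window runs 5′ to 3′ on the gene's strand from 250 bases before to 50 bases after the RefSeq start (GRCh38.p14), with motif matches in capitals. The CHR was searched as TTTGAA and as TTCGAA, each on both strands, so that TTTGAA on the other strand reads as TTCAAA. The CCAAT box was searched likewise and reads as ATTGG when it lies on the other strand. The BUB1 window is chr2:110678014-110678313 on the minus strand, that of KIF23 is chr15:69414099-69414398 on the plus strand, and that of CENPF is chr1:214602945-214603244 on the plus strand. CDC25C has 4 listed starts, and the window at chr5:138331755-138332054 on the minus strand is printed, 1 of 2 that hold both motifs.
BUB1: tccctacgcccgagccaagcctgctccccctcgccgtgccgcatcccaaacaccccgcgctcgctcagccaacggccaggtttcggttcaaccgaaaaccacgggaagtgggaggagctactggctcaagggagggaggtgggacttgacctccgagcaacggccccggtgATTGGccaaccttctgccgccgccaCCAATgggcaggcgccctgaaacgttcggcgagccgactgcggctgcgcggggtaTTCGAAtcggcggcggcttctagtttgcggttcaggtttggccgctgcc
CDC25C: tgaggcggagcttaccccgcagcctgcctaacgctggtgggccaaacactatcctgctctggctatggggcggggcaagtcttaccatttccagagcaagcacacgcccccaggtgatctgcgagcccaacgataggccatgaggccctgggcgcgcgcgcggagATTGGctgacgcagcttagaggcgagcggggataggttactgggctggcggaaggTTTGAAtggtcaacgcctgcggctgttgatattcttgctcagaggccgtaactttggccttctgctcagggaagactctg
KIF23: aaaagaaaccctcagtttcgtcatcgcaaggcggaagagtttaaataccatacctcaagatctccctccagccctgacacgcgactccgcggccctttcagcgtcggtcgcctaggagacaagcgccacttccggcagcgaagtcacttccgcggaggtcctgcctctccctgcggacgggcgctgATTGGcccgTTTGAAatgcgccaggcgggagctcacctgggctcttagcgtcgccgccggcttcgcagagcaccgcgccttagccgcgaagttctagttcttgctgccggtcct
CENPF: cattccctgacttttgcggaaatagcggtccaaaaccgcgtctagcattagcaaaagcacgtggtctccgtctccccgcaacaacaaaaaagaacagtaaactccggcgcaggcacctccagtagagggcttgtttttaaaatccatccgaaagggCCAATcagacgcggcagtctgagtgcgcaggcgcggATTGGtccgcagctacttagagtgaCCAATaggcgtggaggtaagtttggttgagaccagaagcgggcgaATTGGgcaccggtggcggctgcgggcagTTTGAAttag
The KIF23 window has its CHR 55 bases before the start and a CCAAT box 64 bases before it. In CDC25C the CHR begins 30 bases and the CCAAT box 85 bases before the start. The BUB1 window has its CHR just after the start and CCAAT boxes 54 and 79 bases before it. CENPF has CCAAT boxes 33, 58 and 94 bases before the start, and a further CCAAT box and a CHR after it.

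RefSeq windows were found for 46 of the 56 members, with 60 starts in all. FOXM1, UBE2C, AURKA, TTK, PBK, BUB3, TPX2, BIRC5, RACGAP1 and CDCA2 had none and are not covered here. Both strands were searched, and the motifs do not overlap each other in the windows shown. A CHR match lay in 66.7% of the members' windows, against 16.4% of all 35116 windows and 12.1% of those of tested genes. CCAAT was present in 68.3%, against 34.6% of all windows and 34.5% of those of tested genes, and both motifs together in 30 of the 60, against 6.38% and 4.88%. The ETS core CCGGAA or TTCCGG, the kind of sequence that ETS factors such as ELF5 bind, was present in 26.7% of the members' windows, against 17.2% of all windows and 24.9% of those of tested genes. Of the 37 members with a match to the searched CHR forms, 4 rose and 11 fell (their median was -0.04 on the log2 scale). Of the 9 other members with a window, 5 fell and none rose (median -0.11). Over all tested genes 23.3% fell and 23.8% rose. Other forms of the CHR were not searched, so these 9 members may still hold one. With an ETS core in a window, 3 of 15 members fell and 1 rose (median -0.04). Without one, 13 of 31 fell and 3 rose (median -0.05). Whether the ETS core plays a part was not tested. A match is a description of the letters, not a bound site.

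Most of the 56 genes differed little between siELF5 and siNC, and those that did pass the test were more often lower. A gene is called here when its limma adjusted p, over all 16032 genes, is under 0.05. Of the members, 19 fell (33.9%, where 23.3% of all tested genes fell), 5 rose (8.93%, where 23.8% of all tested genes rose) and 32 did not pass. In either direction 42.9% were called, near the 47.1% of all tested genes. These shares of all tested genes are also the background for the counts by class and by list below. They take in genes of lower count than any member, and a background of genes at a like level was not counted. The median log2 fold change of the members was -0.05, against 0.00 for all tested genes, and the members lay between -0.32 (FOXM1) and 0.34 (UBE2C). The 3 siELF5 values all lay below the 3 siNC values for 25 members and all above them for 7, where 28.0% and 27.9% of all tested genes did so. In bulk RNA a smaller share of cells in G2 or mitosis and less mitotic RNA per cell cannot be told apart.

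Across the settings without the GC covariate the lower count moved less than the higher one. After the per-library GC correction 17 members fell (30.4%, against 28.6% of all genes with a GC value) and 11 rose (19.6%, against 21.5%), with a median of -0.03 against -0.02 for all genes, so the members then stood close to the background in both directions. With equal column totals 15 fell (26.8%, against 19.5%) and 10 rose (17.9%, against 27.3%), and with quantile normalisation the same numbers fell and rose, against 24.9% and 21.6% of all genes. With the GC score of the library as a covariate 1 member, FOXM1, fell and none rose by limma, against 3.97% and 3.12% of all genes. At an unadjusted p under 0.05 that fit had 5 lower and 7 higher members, and its median standard error over the members was 0.0882, against 0.0355 without the covariate. Leaving out single libraries gave 15 to 18 lower members (26.8% to 32.1%, where 18.4% to 22.5% of all tested genes were lower). The higher members were 3 (5.36%) without siNC 2, siNC 3, siELF5 1 or siELF5 2, where 20.1%, 23.3%, 19.6% and 20.0% of all tested genes were higher. They were 9 (16.1%) without siNC 1 and 7 (12.5%) without siELF5 3, where 22.0% and 22.7% of all tested genes were higher. edgeR and DESeq2 on the recovered reads, like the authors' deposited table, had 5 members higher and 19 lower.

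**Figure D1:**
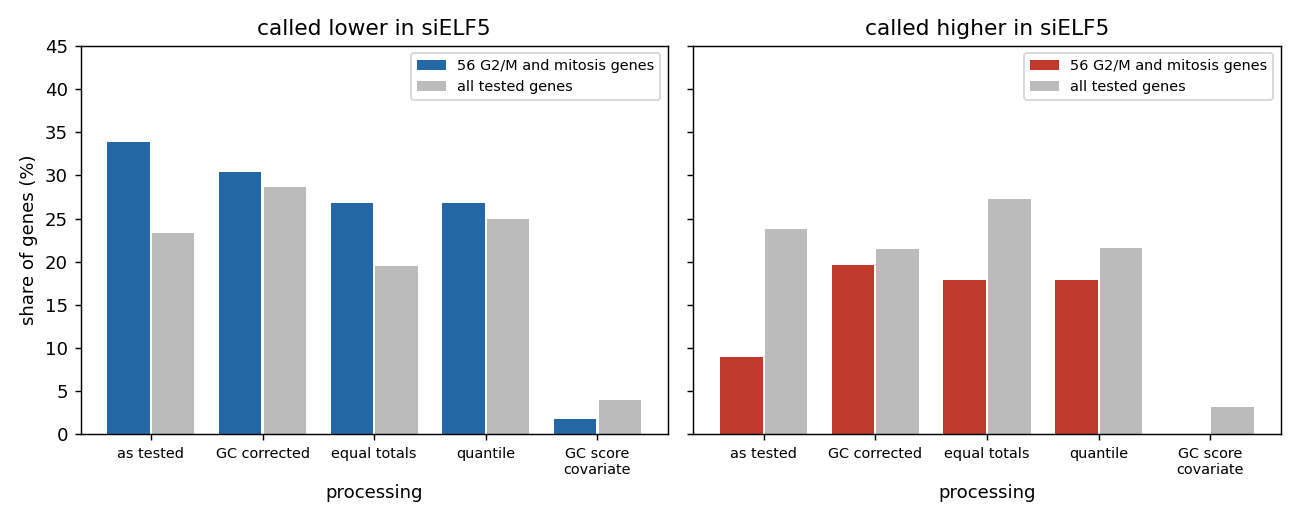
Share of genes (%, y axis) called lower (left) and higher (right) in siELF5 for the 56 G2/M and mitosis genes (coloured bars) and all tested genes (grey bars), under 5 ways of processing (x axis). The members' lower share is 33.9% as tested and 30.4% after the GC correction, where all genes stand at 23.3% and 28.6%.

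FOXM1 and MKI67 fell and TOP2A did not pass the test, with a median log2 difference of -0.20 over these 3 genes. FOXM1, the forkhead factor that activates late cell cycle promoters, had the lowest fold change of the 56. FOXM1 counts were 10663, 10757 and 10812 in siNC 1, 2 and 3 and 8902, 8233 and 8700 in siELF5 1, 2 and 3. The mean went from 10744 ± 75.5 to 8612 ± 343 (SD, n = 3), or 80.2% of siNC, for a log2 difference of -0.32 (limma adjusted p = 1.29e-05, SE 0.035). All 3 siELF5 libraries were below all 3 siNC libraries, and siELF5 2 was the lowest. FOXM1 is GC-rich (55.6%), a class of genes that more often rose in these libraries, and its log2 fold change was -0.37 after the GC correction and -0.32 with the GC score as a covariate (adjusted p = 0.0426). It was the only member called under all 19 settings.

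MKI67, the Ki-67 gene, was counted 57276, 56486 and 55239 times in siNC and 50194, 45804 and 51673 times in siELF5. Its mean fell to 87.4% of siNC, for a log2 difference of -0.20 (limma adjusted p = 0.00136, SE 0.04), with groups that did not overlap and siELF5 2 again the lowest. MKI67 stood at -0.19 after the GC correction and at -0.07 with the GC score as a covariate (adjusted p = 0.72). TOP2A, the topoisomerase that untangles sister chromatids, had a log2 fold change of -0.05 (limma adjusted p = 0.15).

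Among the 6 cyclin, CDK1 and CDC25 genes, CDC25C rose and none fell. CCNB1, cyclin B1, had counts of 27573, 27481 and 26596 in siNC and 27411, 26923 and 26328 in siELF5. Its log2 fold change was -0.02, with a 95% interval of -0.08 to 0.05 and overlapping groups. CDK1, the kinase that drives entry into mitosis, had 34773, 33724 and 34442 in siNC and 34156, 35182 and 31814 in siELF5. Here siELF5 2 was the highest and siELF5 3 the lowest of all 6 libraries, with a log2 fold change of -0.03 and an interval of -0.10 to 0.05. The intervals of both genes thus leave out a change as large as that of FOXM1.

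CDC25C, a phosphatase that activates CDK1, had counts of 2202, 2097 and 2124 in siNC and 2697, 2498 and 2485 in siELF5. The mean rose from 2141 ± 54.4 to 2560 ± 119 (SD, n = 3), for a log2 difference of 0.26 (limma adjusted p = 0.000893, SE 0.049). Every siELF5 value lay above every siNC value, and the value was 0.27 after the GC correction and 0.35 with the GC score as a covariate (adjusted p = 0.108). CCNA2, cyclin A2 (0.08), CCNB2, cyclin B2 (0.04), and the related phosphatase CDC25B (0.07) did not pass. After the GC correction CCNA2 and CCNB2 were called higher, at 0.12 and 0.10. CDC25B, with a GC content of 59.3%, moved to -0.08 in that fit and was not called. With equal column totals and with quantile normalisation CDC25B (0.10) and CCNA2 (0.11) were called higher. CCNA2 was also called higher without siELF5 3.

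Of the 9 mitotic kinases, BUB1, BUB1B, PBK and AURKB fell and PLK1 rose, where 23.3% of all tested genes fell and 23.8% rose. BUB1, a checkpoint kinase of the kinetochore, had 9147, 9069 and 8994 in siNC and 8332, 8042 and 8026 in siELF5, for a log2 difference of -0.16 (limma adjusted p = 0.00147, SE 0.032). BUB1B, which encodes the checkpoint protein BUBR1, had 12988, 12557 and 12287 in siNC and 11932, 11375 and 11252 in siELF5, a log2 fold change of -0.13 (limma adjusted p = 0.00797). Neither pair of groups overlapped, and the siELF5 libraries held about 90% of the siNC level (89.7% and 91.3%). PBK, a mitotic kinase, fell by 0.13 on the log2 scale, as did AURKB, the kinase of the chromosomal passenger complex, by 0.12 (adjusted p = 0.0247). After the GC correction BUB1 stood at -0.11, PBK at -0.10 and AURKB at -0.17, all called. BUB1B was at -0.07 after that correction (adjusted p = 0.0494) and at -0.01 with the GC score as a covariate (adjusted p = 0.967). The call of AURKB was lost without siNC 2 (adjusted p = 0.131), siELF5 1 (0.0562) or siELF5 2 (0.0857).

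PLK1, a kinase needed for mitotic entry, spindle assembly and cytokinesis, went against the other called kinases. PLK1 counts were 9436, 9959 and 10280 in siNC and 11233, 10659 and 11060 in siELF5, so all 3 siELF5 values were above siNC. The mean rose to 111% of siNC, for a log2 difference of 0.15 (limma adjusted p = 0.00541, SE 0.038). PLK1 has a GC content of 57.1%. Its log2 fold change was 0.09 after the GC correction and -0.00 with the GC score as a covariate (limma adjusted p = 0.995). AURKA, a kinase of the spindle poles, had 16289, 16131 and 15887 in siNC and 16443, 15786 and 15270 in siELF5. These groups overlapped, and the log2 fold change was -0.02 (95% interval -0.10 to 0.05). TTK (-0.08), NEK2 (-0.04) and PLK4 (-0.03) did not pass either, which are kinases of the checkpoint, of centrosome separation and of centriole duplication.

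**Figure D2:**
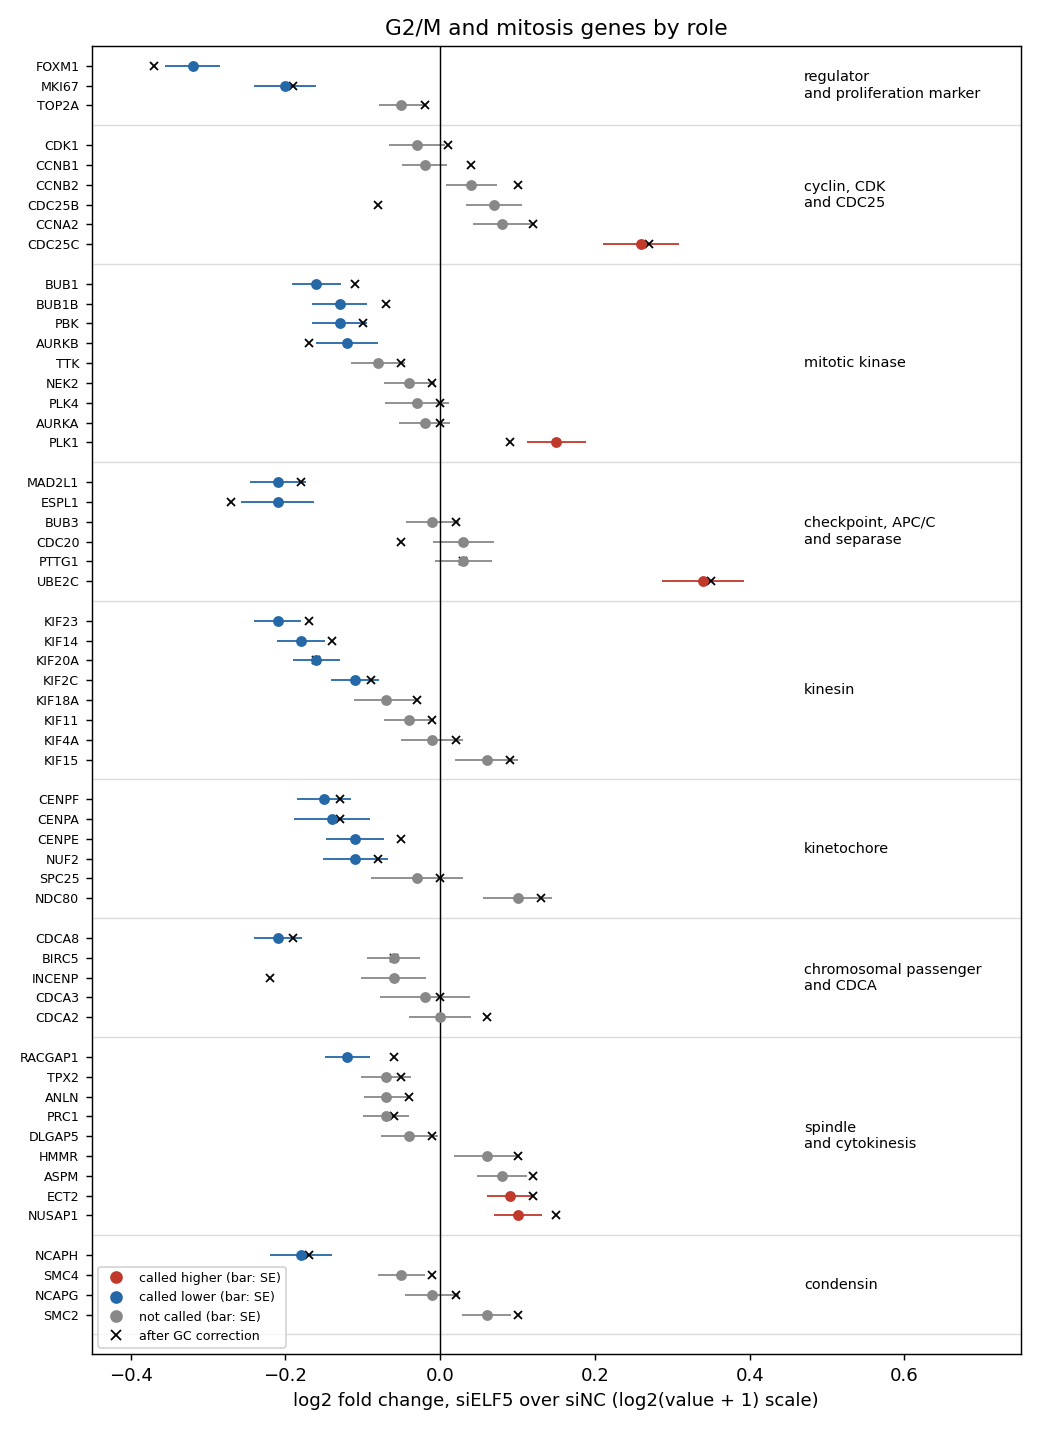
Log2 fold change, siELF5 over siNC (x axis, log2(value + 1) scale), of the 56 genes (rows) by role. Circles with bars give the estimate and its standard error over 3 libraries a group, coloured by call, and crosses give the value after the GC correction. FOXM1 has the lowest value (-0.32) and UBE2C the highest (0.34), and most other genes lie within 0.2 of zero.

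The 6 checkpoint, APC/C and separase genes moved both ways, with UBE2C up and MAD2L1 and ESPL1 down. UBE2C, the ubiquitin-conjugating enzyme that starts chains for the APC/C, had 10318, 11443 and 11543 in siNC and 14619, 14650 and 12908 in siELF5. The mean rose from 11101 ± 680 to 14059 ± 997 (SD, n = 3), for a log2 difference of 0.34 (limma adjusted p = 0.000208, SE 0.053). The groups did not overlap, although siELF5 3 was closer to siNC than the other 2 siELF5 libraries. The value was 0.35 after the GC correction but 0.08 with the GC score as a covariate (adjusted p = 0.75). UBE2C has processed pseudogenes, so its reads may be split with copies.

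MAD2L1, the MAD2 protein that holds back the APC/C, had 7435, 7176 and 7515 in siNC and 6323, 6555 and 6211 in siELF5. It fell to 86.3% of siNC, for a log2 difference of -0.21 (limma adjusted p = 0.000379, SE 0.036), and its GC-corrected value was -0.18. ESPL1, separase, the protease that cuts cohesin at anaphase, had 14597, 14743 and 14912 in siNC and 12571, 11866 and 13843 in siELF5. Its log2 fold change was -0.21 (SE 0.047, limma adjusted p = 0.00235), and -0.27 after the GC correction. In both genes every siELF5 value was below siNC, and in ESPL1 the siELF5 libraries were spread far more (SD 1002) than the siNC libraries (SD 158). The APC/C activator CDC20 (0.03), the securin gene PTTG1 (0.03) and the checkpoint gene BUB3 (-0.01) did not pass, and PTTG1 has near-identical copies that could share reads.

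Kinesins, the motors that move along spindle microtubules, were lower or did not pass: 4 of 8 fell and none rose, with a median of -0.09. Over all tested genes 23.3% fell and 23.8% rose. KIF23, the motor of the centralspindlin complex, had 16009, 15794 and 15992 in siNC and 14028, 13800 and 13406 in siELF5. It fell from 15932 ± 119 to 13745 ± 314 (SD, n = 3), for a log2 difference of -0.21 (limma adjusted p = 9.33e-05, SE 0.03). KIF14, a kinesin of the midbody, had 11016, 10661 and 11033 in siNC and 9753, 9630 and 9545 in siELF5, a log2 fold change of -0.18 (limma adjusted p = 0.000507). Both genes showed a gap between the groups wider than the spread within either.

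KIF20A, a kinesin of the central spindle, had 13958, 13612 and 13814 in siNC and 12481, 12057 and 12402 in siELF5. Its log2 fold change was -0.16 (limma adjusted p = 0.000708), and -0.16 also after the GC correction. KIF2C, which takes apart microtubule ends, fell by 0.11 on the log2 scale. These 4 kinesins were also called lower after the GC correction, at -0.17, -0.14, -0.16 and -0.09, and in every fit that left out a library. KIF11, the motor that pushes the poles apart (-0.04), KIF18A (-0.07), KIF4A (-0.01) and KIF15 (0.06) did not pass, and KIF4A has a near-identical copy, KIF4B.

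Of 6 kinetochore genes, CENPF, CENPA, CENPE and NUF2 fell, where 23.3% of all tested genes fell. The median over the 6 was -0.11. CENPF, a large protein of the outer kinetochore, had 88285, 82491 and 81696 in siNC and 76704, 73162 and 77015 in siELF5, for a log2 difference of -0.15 (limma adjusted p = 0.00278, SE 0.035). CENPA, the centromeric histone, had 2708, 2492 and 2461 in siNC and 2328, 2267 and 2336 in siELF5, a log2 fold change of -0.14 (limma adjusted p = 0.0295). CENPE, a kinetochore motor, had 14079, 13168 and 12933 in siNC and 12708, 12138 and 12477 in siELF5, a log2 fold change of -0.11 (limma adjusted p = 0.0324). In all 3 genes siNC 1 was well above the other 2 siNC libraries, and the lowest siNC value was still above the highest siELF5 value.

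The kinetochore calls other than CENPF were close to the threshold. CENPA was lost without siNC 1 (adjusted p = 0.117), siNC 2 (0.0526), siELF5 1 (0.0663) or siELF5 2 (0.0938). CENPE was lost without siNC 1 (adjusted p = 0.128), siNC 2 (0.064), siELF5 2 (0.118) or siELF5 3 (0.0503), and after the GC correction it stood at -0.05. NUF2, a subunit of the NDC80 complex that grips microtubules (-0.11, limma adjusted p = 0.0451), was called in 1 of the 6 fits that left out a library, and not after the GC correction (-0.08, adjusted p = 0.0658). Its partner NDC80 had a log2 fold change of 0.10 and was called higher only after the GC correction (0.13, adjusted p = 0.00987), with both rescalings of the libraries, and without siNC 1 or siELF5 3. SPC25, another subunit of that complex, stood at -0.03. CENPF and CENPA were both at -0.13 after the GC correction and still called. With the GC score as a covariate CENPF, CENPA and CENPE were at 0.03, 0.07 and 0.08.

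CDCA8 was the 1 called gene among 5 chromosomal passenger and CDCA genes. CDCA8, which encodes borealin of the passenger complex, had 8346, 8318 and 8363 in siNC and 7236, 7144 and 7258 in siELF5. It fell from 8342 ± 22.8 to 7212 ± 60.6 (SD, n = 3), for a log2 difference of -0.21 (limma adjusted p = 0.000142, SE 0.031), with very little spread within either group, and -0.19 after the GC correction. Its partner AURKB, counted with the kinases above, was also called lower (-0.12), a call lost in some fits that left out a library. The partners BIRC5, survivin (-0.06), and INCENP (-0.06) did not pass. INCENP is the most GC-rich of the 56 at 59.6%, and after the GC correction it was called lower at -0.22 (limma adjusted p = 8.65e-06). It was called lower without siNC 1 too (limma adjusted p = 0.0329). CDCA2 (0.00) and CDCA3 (-0.02) did not pass as tested or after the GC correction.

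Of 9 spindle and cytokinesis genes, NUSAP1 and ECT2 rose and RACGAP1 fell. RACGAP1, the partner of KIF23 in centralspindlin, had 28082, 27465 and 27087 in siNC and 25978, 24922 and 25148 in siELF5, for a log2 difference of -0.12 (limma adjusted p = 0.00483, SE 0.029). ECT2, the exchange factor that centralspindlin recruits to build the cleavage furrow, had 48801, 46247 and 47013 in siNC and 51206, 50343 and 49614 in siELF5, a log2 fold change of 0.09 (limma adjusted p = 0.0234). NUSAP1, a protein that bundles spindle microtubules, had 26310, 25089 and 25269 in siNC and 27711, 27688 and 26573 in siELF5, a log2 fold change of 0.10 (limma adjusted p = 0.0216). The groups did not overlap in any of the 3, and within the furrow pathway KIF23 and RACGAP1 were thus lower while ECT2 was higher.

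The calls of NUSAP1 and ECT2 were each lost without siNC 2 (adjusted p = 0.113 and 0.138), siNC 3 (0.0651 and 0.0683), siELF5 1 (0.0805 and 0.0869) or siELF5 2 (0.0738 and 0.0538), and both were called after the GC correction, at 0.15 and 0.12. With the GC score as a covariate both were at 0.17 and not called. RACGAP1 was not called after the GC correction (-0.06, adjusted p = 0.0585) and stood at -0.04 with the GC score. The hyaluronan-binding spindle gene HMMR (0.06) and the spindle pole gene ASPM (0.08) did not pass. They were called higher after the GC correction at 0.10 and 0.12, and also without siNC 1. ASPM was called higher with equal column totals and with quantile normalisation too. TPX2 (-0.07), PRC1 (-0.07), ANLN (-0.07) and DLGAP5 (-0.04) did not pass as tested or after the GC correction. TPX2 was called lower without siELF5 1 (limma adjusted p = 0.0354).

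Of the 4 condensin genes, NCAPH fell. NCAPH, the kleisin subunit of condensin I, had 5068, 5123 and 4771 in siNC and 4454, 4333 and 4377 in siELF5, or 88.0% of siNC. Its log2 fold change was -0.18 (SE 0.04, limma adjusted p = 0.00209), and -0.17 after the GC correction, with -0.06 when the GC score was a covariate. NCAPG, a further condensin I subunit (-0.01), and the ATPases SMC4 (-0.05) and SMC2 (0.06) did not pass. SMC2 was called higher after the GC correction at 0.10, with equal column totals, with quantile normalisation and without siNC 1. Calls thus differed between subunits of condensin, as they did for NUF2 and NDC80 at the kinetochore, but the differences between subunits were not tested.

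**Figure D3:**
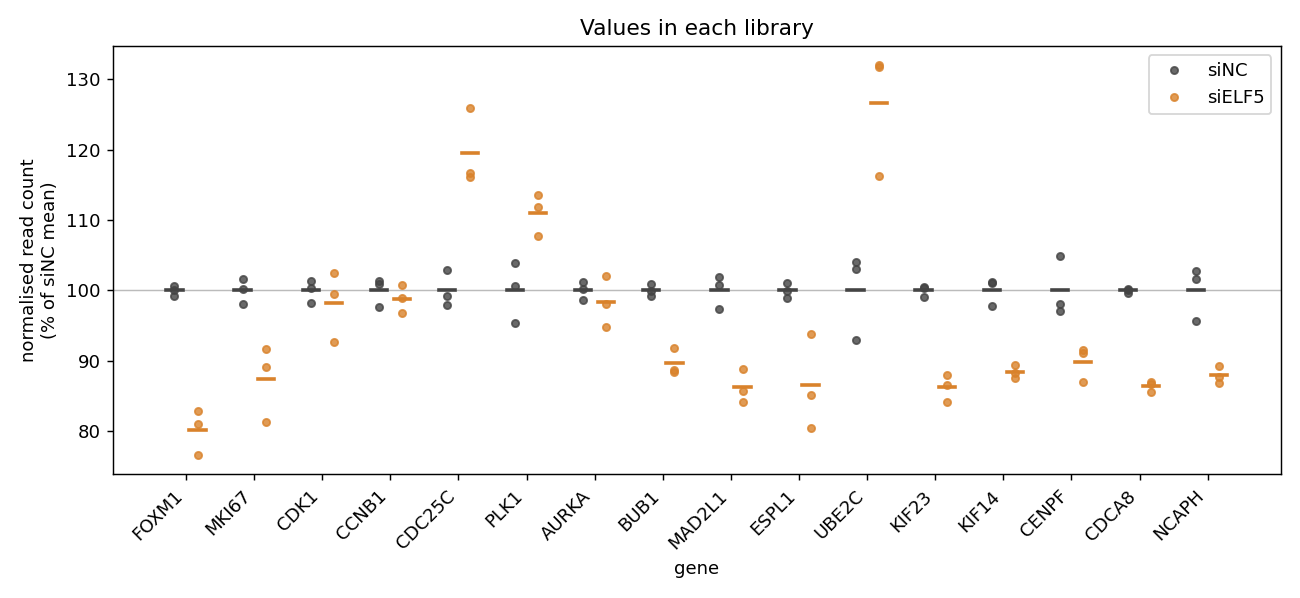
Normalised read count in each library as a percent of the siNC mean (y axis, which does not start at 0) for 16 G2/M and mitosis genes (x axis). Points are libraries (grey siNC, orange siELF5) and horizontal lines are group means. CCNB1, CDK1 and AURKA overlap between groups, CDC25C, PLK1 and UBE2C lie above, and the other 10 lie below siNC.

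The members varied little within a group, with a median coefficient of variation of 2.53% in siNC and 2.72% in siELF5, against 4.84% and 4.88% over all tested genes. All tested genes reach down to a mean of 10, far below any member. Genes of like count were not compared, so the smaller spread is not shown to be a trait of these genes. Libraries of 1 group still differed in a shared way. The median log2 deviation of the 56 genes from their own means was 0.06, 0.02 and 0.01 in siNC 1, 2 and 3 and 0.00, -0.02 and -0.05 in siELF5 1, 2 and 3, where the same median over all tested genes was 0.00 in each library. The siNC 1 library held the highest value for 24 of the 56 genes, and siELF5 3 held the lowest for 25. The siNC 3 and siELF5 1 medians, at 0.01 and 0.00, were closer to each other than siNC 1 was to siNC 3. Without siNC 1 the members' median fold change was -0.03, with 9 higher and 17 lower, and without siELF5 3 it was also -0.03, with 7 higher and 17 lower.

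**Figure D4:**
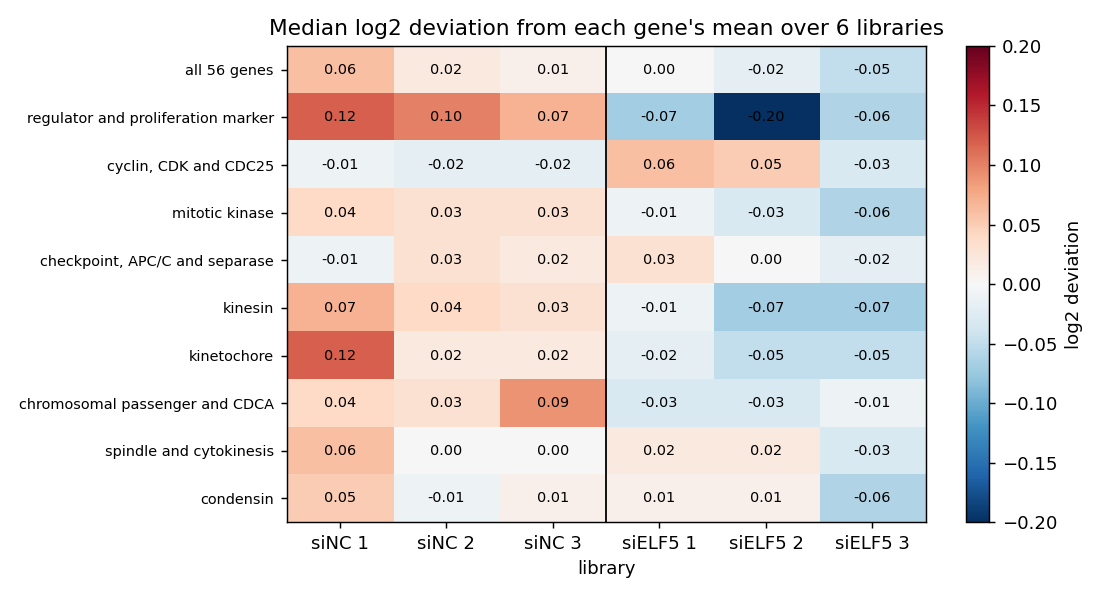
Median log2 deviation (colour and printed value) of each role class (rows) in each library (columns) from each gene's mean over the 6 libraries. The row of all 56 genes goes from 0.06 in siNC 1 to -0.05 in siELF5 3, and the 3 regulator and marker genes have the widest span, from 0.12 to -0.20.

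The members were poorer in GC than most genes, with a median transcript GC content of 42.5% against 48.6% for all tested genes. Of 16 members below 40% GC, 4 fell and 1 rose, where 28.5% of all such genes fell and 15.4% rose. Between 40% and 50% GC, 10 of 28 members fell and 2 rose, where 28.7% and 16.8% of all such genes did. Of 12 members at 50% or more, 5 fell and 2 rose, where 18.4% of all such genes fell and 33.4% rose. In that class the median log2 fold change of the members was -0.06 and that of all genes 0.09. FOXM1, AURKB, ESPL1, KIF2C and CDCA8 were its 5 lower members, and PLK1 and UBE2C its 2 higher ones.

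The sites shown next concern a 7-base motif, CACTAAC or ACTAACA, that an earlier search of these same data linked with lower values, so counts for it are a description and support nothing. The sources used here do not give the siRNA sequences, and whether the motif pairs with either siRNA was not tested. In the 3′ UTRs of GENCODE 29 (GRCh38) it lay in 4 of the 56 members (7.14%), against 11.3% of the 13423 tested genes searched. They are shown because FOXM1, the lowest of the 56, is among them, with the motif in capitals and a few bases of context on either side.
FOXM1: agcttgagaaCACTAACtactcaataaa
MKI67: ggctttcttaCACTAACtctgtacctac
TTK: gctaaaatgaCACTAACAttt
RACGAP1: tggcatcccaACTAACAataaagagtag
FOXM1, MKI67 and RACGAP1 fell, while TTK, whose site spans both forms of the motif, did not pass. Of the 52 members without the motif 16 fell and 5 rose, with a median log2 difference of -0.04. Over all genes searched, 40.9% of those with the motif and 23.6% of those without it fell.

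Levels between genes were compared as siNC normalised reads per kilobase of the longest GENCODE 29 transcript. They ran from 536 for CDCA3 to 19937 for TOP2A. CDK1 (17614 ± 275, SD, n = 3) stood above CCNB1 (12548 ± 249), and CCNB1 above CCNB2 (4696 ± 65.0) and CCNA2 (4292 ± 99.6), while CDC25C was the lowest of its class at 1002 ± 25.5. AURKA led the kinases (7163 ± 90.2) and PLK4 was the lowest (1062 ± 17.7), and AURKB (3401 ± 106) and BUB1B (3385 ± 94.9) did not differ beyond their spread. KIF11 led the kinesins (6446 ± 123), and KIF20A (4310 ± 54.3) and KIF23 (4279 ± 32.0) were within their spread of each other. The same held for ECT2, TPX2 and NUSAP1, at 10748, 10670 and 10608. These levels rest on 1 transcript model per gene.

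A further 145 genes of the mitotic pathway or its gene families, not all of them mitotic, were counted in the same fit. They came from 8 lists drawn up with earlier results known. Of the 145 genes, 23 rose (15.9%, where 23.8% of all tested genes rose) and 43 fell (29.7%, where 23.3% fell). Their median log2 difference was -0.04. After the GC correction 33 of 140 rose (23.6%, against 21.5%) and 44 fell (31.4%, against 28.6%), near the background in both directions. Among 16 other regulators, 2 rose and 7 fell. E2F7, an atypical E2F that represses, went from counts of 4702, 4701 and 4608 to 5689, 5724 and 5709, a log2 fold change of 0.29, and E2F5, an E2F that acts with pocket proteins, from 2740, 2641 and 2704 to 2050, 2058 and 1910, or -0.43. Both pairs of groups were well apart. After the GC correction E2F7 was at 0.35 and E2F5 at -0.39, and with the GC score as a covariate E2F7 was called (0.33, adjusted p = 0.0387) and E2F5 was not (-0.41, adjusted p = 0.053).

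Of 14 other kinases, phosphatases and cofactors, 5 rose and 3 fell. WEE1, the kinase that sets the inhibitory phosphate on CDK1, had 4072, 4083 and 4122 in siNC and 5627, 5583 and 5474 in siELF5, a log2 fold change of 0.44 (limma adjusted p = 7.52e-07). CDC25A, the phosphatase that removes such phosphates at earlier stages, had 4320, 4086 and 4158 in siNC and 3295, 3179 and 3191 in siELF5, or -0.38 (limma adjusted p = 9.48e-06). WEE1 and CDC25C, which act on CDK1 in opposite ways, were both higher. After the GC correction WEE1 was at 0.48 and CDC25A at -0.36, and with the GC score as a covariate WEE1 was called (0.42) and CDC25A was not (-0.29, adjusted p = 0.11). PKMYT1, named after its values were seen as the highest of all 145 (0.99), was at 0.33 after the GC correction and -0.09 with the GC score.

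Among 18 other APC/C genes and ubiquitin enzymes, 4 rose and 2 fell, with the chain-extending enzyme UBE2S at 0.31 and UBE2D1 at -0.21. They stood at 0.26 and -0.13 after the GC correction, and with the GC score as a covariate at 0.09 (adjusted p = 0.747) and -0.08 (adjusted p = 0.798). Of 12 other kinesins, not all of them mitotic, 6 fell and none rose, where 23.3% of all tested genes fell and 23.8% rose. The cargo motors KIF5B (-0.30) and KIF21A (-0.35), which carry loads outside mitosis, had the smallest adjusted p, while KIF3A, named after its values were seen, had the lowest fold change (-0.37). With the GC score as a covariate these 3 stood at -0.24, -0.21 and -0.30, and none was called. Of 33 other kinetochore genes 4 rose and 6 fell. OIP5, which helps load CENPA, rose by 0.42, and CENPQ, of the inner kinetochore, fell by 0.47 on the log2 scale. OIP5 was at 0.44 and CENPQ at -0.39 after the GC correction, and both were also called with the GC score as a covariate.

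Of 15 other condensin and cohesin genes 7 fell and 1 rose, among them CDCA5, sororin (-0.18), and the cohesin ATPase SMC1A (-0.16). After the GC correction these 2 stood at -0.23 and -0.14, and with the GC score as a covariate at -0.09 and -0.07, not called. Of 27 other spindle, nuclear envelope and cytokinesis genes 7 rose and 9 fell. LMNB1, lamin B1, had 14287, 14086 and 14112 in siNC and 22456, 22916 and 21502 in siELF5, for a log2 difference of 0.65 (limma adjusted p = 9.46e-09, SE 0.032), larger than any change among the 56. LMNB1 stood at 0.67 after the GC correction and 0.66 with the GC score as a covariate, where it was called. CKAP5, a microtubule polymerase, fell by 0.24 on the log2 scale, and was at -0.19 after the GC correction and -0.12 with the GC score as a covariate (adjusted p = 0.373). Of 10 centriole genes 3 fell and none rose, with SASS6, of the centriole cartwheel, at -0.20 and CDK5RAP2 at -0.10, a call that held in 2 of the 6 fits that left out a library. They were at -0.14 and -0.07 after the GC correction, and at -0.12 and -0.01 with the GC score as a covariate, where neither was called.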

How the data were processed

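Total RNA of 6 T47D libraries was measured, 3 siNC and 3 siELF5, grouped and numbered by sample title. The table's columns named Control and ELF5KD were matched to siNC and siELF5 libraries by replicate number. The kit does not mark strand, per the labels' protocols. The submitters' processing notes name hg19, STAR 2.6, Subread, featureCounts 1.6.3 and DESeq2 1.22.1. For strand and shared reads the counting options are unstated in the sources used here.

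The deposited per-library values are signal values, called normalised read counts here. All non-zero values (100%, tolerance 1e-06) were whole multiples of 1 read, so gene counts divided by a size factor, and whole reads were recovered. The deposited log2 fold changes, test score and p-values are the authors' DESeq2 results, per the file headers, and served only for the count of calls. Replicates differed by more than sampling noise (chi-square per degree of freedom 4.38 to 12). The spread behind each p-value is that between libraries, and it may be technical.

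The main test was limma 3.58.1 (R 4.3.3) on log2(value + 1), two-sided and with an intensity trend. It took genes whose mean was 10 or more, with Benjamini-Hochberg adjustment over 16032 genes. The pseudocount understates changes of low genes. From the whole reads 7578 genes were called by edgeR 4.0.16 (quasi-likelihood) and 7292 by DESeq2 1.42.0. The GC correction subtracts a loess curve (span 0.3) of deviation on GC content per library, for 14941 genes (93.2%) with a GENCODE 29 transcript. Any siRNA effect that follows GC content is removed by it too. As a covariate, the GC score takes up part of the group difference.

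The members, lists, roles and tests were chosen with earlier results of these data known. Values in each library are given for FOXM1, MKI67, CDK1, CCNB1, PLK1 and AURKA and, per role class, for up to 3 called members with the largest change. Of the other pathway genes, up to 2 called per list with the smallest adjusted p are named. The reference and the counts are on different builds, so coordinates are those of RefSeq promoters only.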

Additional observations from a re-analysis of the deposited data

How the results depend on the processing

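Of the 24 called members, 16 were called in the same direction under all 16 settings without a GC term, and 18 after each library left out in turn. The 8 whose call was lost under some setting without a GC term were AURKB, BUB1B, PBK, CENPA, CENPE, NUF2, NUSAP1 and ECT2. Of the 19 lower members 16, and of the 5 higher members all 5, were called the same way after the GC correction. The number of higher members was 10 with equal column totals, 10 with quantile normalisation, 3 with no intensity trend and 11 with the GC correction, with or without a replicate block, against 5 as reported. Without 1 library it ranged from 3 to 9. The library GC score as a covariate gave 0 higher and 1 lower member, 501 higher and 637 lower genes of all tested, 5 higher and 2 lower of the other pathway genes, and a member median of 0.02. With that covariate 29 of the 56 members had a value above 0 and 27 below, against 16 and 40 as reported. Of the called members PLK1 (-0.00, SE 0.088), CENPA (0.07, SE 0.12), CENPE (0.08, SE 0.08) and CENPF (0.03, SE 0.076) had estimates of the other sign. These estimates were no larger than their standard errors, so a change of direction is not shown. The cause was not tested. The members' median was -0.01 with equal column totals, which moved the median of all genes by 0.032, and -0.02 with quantile normalisation. With no intensity trend 15 other pathway genes rose and 28 fell. The siNC and siELF5 libraries share replicate numbers. The deviations of same-numbered libraries correlated at 0.0146, -0.0345 and -0.056, and those of differently numbered libraries between -0.0359 and 0.0713. Such values cannot show whether the libraries were prepared in pairs. A fit with a replicate block had 5 higher and 19 lower members, losing NUF2 (adjusted p = 0.0505) and gaining TPX2 (0.0427). Pseudocounts of 0.5 and 10 and a minimum mean of 50 changed no member's call, and no filter on low values ended that of NUF2. With 3 libraries a group, and standard errors of 0.029 to 0.059 for the members, changes well under 0.1 on the log2 scale could not be shown.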
